A study of Mus musculus with 3 samples.

Results

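Interferon-stimulated genes are the antiviral genes that a cell switches on when interferon binds its surface. Of the 27,998 genes in the count table, 9 are described here by name across the deposited cell clusters, namely *Isg15*, *Usp18*, *Ifit1*, *Ifit3*, *Oasl2*, *Rsad2*, *Irf7*, *Bst2* and *Ifitm3*. The list was given by gene symbol and not by a threshold on these data, and all 9 were found as protein-coding genes. Type I interferons bind the IFNAR1–IFNAR2 receptor, whose kinases JAK1 and TYK2 start a signal that ends at the interferon-stimulated response element (ISRE) in the promoters of these genes, where STAT2 and IRF9 act. The response to interferon-γ uses a different element, GAS. Inflammatory and interferon signals are also known from the embryonic haematopoietic niche, where they act during the emergence of blood from endothelium.

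The cells came from an experiment on endothelial-to-haematopoietic transition in the mouse. Adult cardiac endothelium of mice with a GFP transgene, sorted as GFP+, CD31+, VE-Cad+ and negative for CD41, CD45, PDGFRA and PDGFRB, was taken fresh (0 h) or after 24, 48, 72 or 96 h of co-aggregation with PDGFRA+ stromal cells from E11.5 *Mesp1*–DsRed embryos (*Mesp1*der PSCs), and was sorted again from the aggregates as GFP+, CD31+, VE-Cad+ and PDGFRA-. The transgene is not specific to endothelium, so that GFP marks donor cells of other types too, and the hearts were those of adult females. Cultures held IL-3 (IL in the labels), SCF and Flt3L at 100 ng/ml each. All times were mixed into 3 pools (A, B and C), and the table gives neither a time nor a pool for a cell, so fresh and cultured cells cannot be told apart here and no comparison of times or treatments was possible. Cells carry 1 of 3 library suffixes on their barcodes and 1 of 7 cluster numbers (0 to 6) given by the authors, and the genes are described by these.

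Sequencing of 9,562 cells gave 252,339,042 unique molecular identifiers (UMIs, each a captured mRNA molecule), with library medians of 13,440.5 to 38,312 UMIs per cell. Cluster 1, which carries most of what follows, was the shallowest cluster at a median of 7,875 UMIs in 799 cells, against 14,061 to 36,065.5 elsewhere. Of 6 endothelial markers, 3 were at least 2-fold higher in each of clusters 0, 1 and 2 than in the rest, and all 6 were lower in each of clusters 3 to 6, so the endothelial label held in clusters 0 to 2 only. The other clusters were higher for all listed germ or pluripotent markers (cluster 3), stromal markers (cluster 4), macrophage markers (cluster 5) or megakaryocyte markers (cluster 6). Cluster 5 was also higher for *S100a8*, *S100a9*, *Mpo* and *Elane* of the neutrophil list, though not for *Ly6g*, so it does not hold macrophages alone. The libraries shared 13 barcodes, and 5 genes of cluster 5 or 6 (*S100a8*, *S100a9*, *Lyz2*, *C1qb* and *Ppbp*) served to gauge free RNA in the droplets. In clusters 0, 2, 3 and 4 they stood at 0.0919% (*Ppbp*) to 2.17% (*Lyz2*) of their level there, and in cluster 1 *C1qb* reached 17.0%, *S100a8* 17.2% and *Lyz2* 518%.

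The genes lie on 7 chromosomes of GRCm38. *Isg15* spans chr4:156199424-156200818, *Oasl2* chr5:114896936-114912234 and *Usp18* chr6:121245906-121270917. *Ifitm3* (chr7:141009586-141010770) and *Irf7* (chr7:141262706-141266481) share chromosome 7, *Bst2* lies at chr8:71534255-71537456 and *Rsad2* at chr12:26442746-26456452. *Ifit1* (chr19:34640871-34650009) and *Ifit3* (chr19:34583531-34588731) belong to 1 gene family on chromosome 19, where *Ifit3* has the near copy *Ifit3b* and *Ifit1* the near copy *Ifit1bl1*, and *Oasl2* resembles *Oasl1*, so that reads could be split between copies by the counting.

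The promoters are shown because the ISRE is what ties these genes to interferon. RefSeq promoter windows (250 bases before to 50 after the start, GRCm38.p6) matched 8 of the 9 genes by symbol. Both strands were searched for the ISRE core GAAANNGAAA, which reads TTTCNNTTTC on the other strand. Of the 8 windows 6 held at least 1 match (75%), against 3.44% of 32,851 promoter windows of the same length. The 6 stretches below run 5′ to 3′ on the strand of the gene, and capitals mark ISRE matches, some of which overlap.
Isg15: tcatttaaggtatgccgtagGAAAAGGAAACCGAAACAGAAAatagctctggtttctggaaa
Bst2: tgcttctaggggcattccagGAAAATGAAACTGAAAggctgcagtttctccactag
Ifit1: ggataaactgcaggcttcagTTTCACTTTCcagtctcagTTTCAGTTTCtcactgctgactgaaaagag
Ifit3: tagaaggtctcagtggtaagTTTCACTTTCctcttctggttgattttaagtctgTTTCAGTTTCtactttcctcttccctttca
Rsad2: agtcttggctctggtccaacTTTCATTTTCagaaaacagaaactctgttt
Ifitm3: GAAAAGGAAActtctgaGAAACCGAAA

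In *Isg15* (chr4:156200855-156200916, minus strand) 3 overlapping matches ran from base -78 to -57 before the start. *Bst2* (chr8:71537567-71537622, minus strand) had 2 overlapping matches from -130 to -115. *Ifit1* (chr19:34640765-34640833, plus strand) and *Ifit3* (chr19:34583353-34583436, plus strand) each had 2 separate matches, all on the opposite strand, with the same letters TTTCACTTTC and TTTCAGTTTC in the same order in both genes. *Rsad2* (chr12:26456543-26456592, minus strand) had 1 match. The *Ifitm3* stretch (chr7:141010716-141010742, minus strand) lay after the RefSeq start, at bases 3 to 29. The windows of *Oasl2* and *Irf7* held none of these letters. The GAS core TTCNNNGAA occurred in 2 of the 8 windows, *Bst2* and *Ifitm3*, where it overlapped an ISRE match in each case, and in 8.30% of all windows. A match of letters is a description of the window and not a site at which a factor was shown to bind.

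Levels are UMIs of a gene per 10,000 UMIs of the summed cells of a cluster, with 95% Poisson intervals that cover counting error only. The clusters were made by the authors from the same cells, and without a map to pools the table is 1 sample, so that no test was run and ranges over the 3 libraries stand in for replicate spread. Together the 9 genes reached 41.5 UMIs per 10,000 in cluster 1 (41.1 to 42.0), with 43.0, 42.7 and 38.5 in libraries 1, 2 and 3. Cluster 3 followed at 16.1, and the other clusters lay between 1.81 (cluster 2) and 5.79 (cluster 0). Without *Ifitm3* and *Bst2*, which many tissues make without interferon, the other 7 summed to 13.4 in cluster 1 and to 0.208 to 0.667 elsewhere, and cluster 3 at 0.272 no longer stood out. Each of the 9 genes was at least 2-fold higher in cluster 1 than in the other clusters together in all 3 libraries, where 18.6% of the 9,337 genes tested met the same rule (at least 2-fold, the same direction in every library and at least 0.1 UMIs per 10,000 in the higher group). Their log2 ratios ran from 2.81 (*Bst2*) to 6.88 (*Ifit1*) with a median of 5.25, beside a median of 0.08 over all genes tested.

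**Figure D1:**
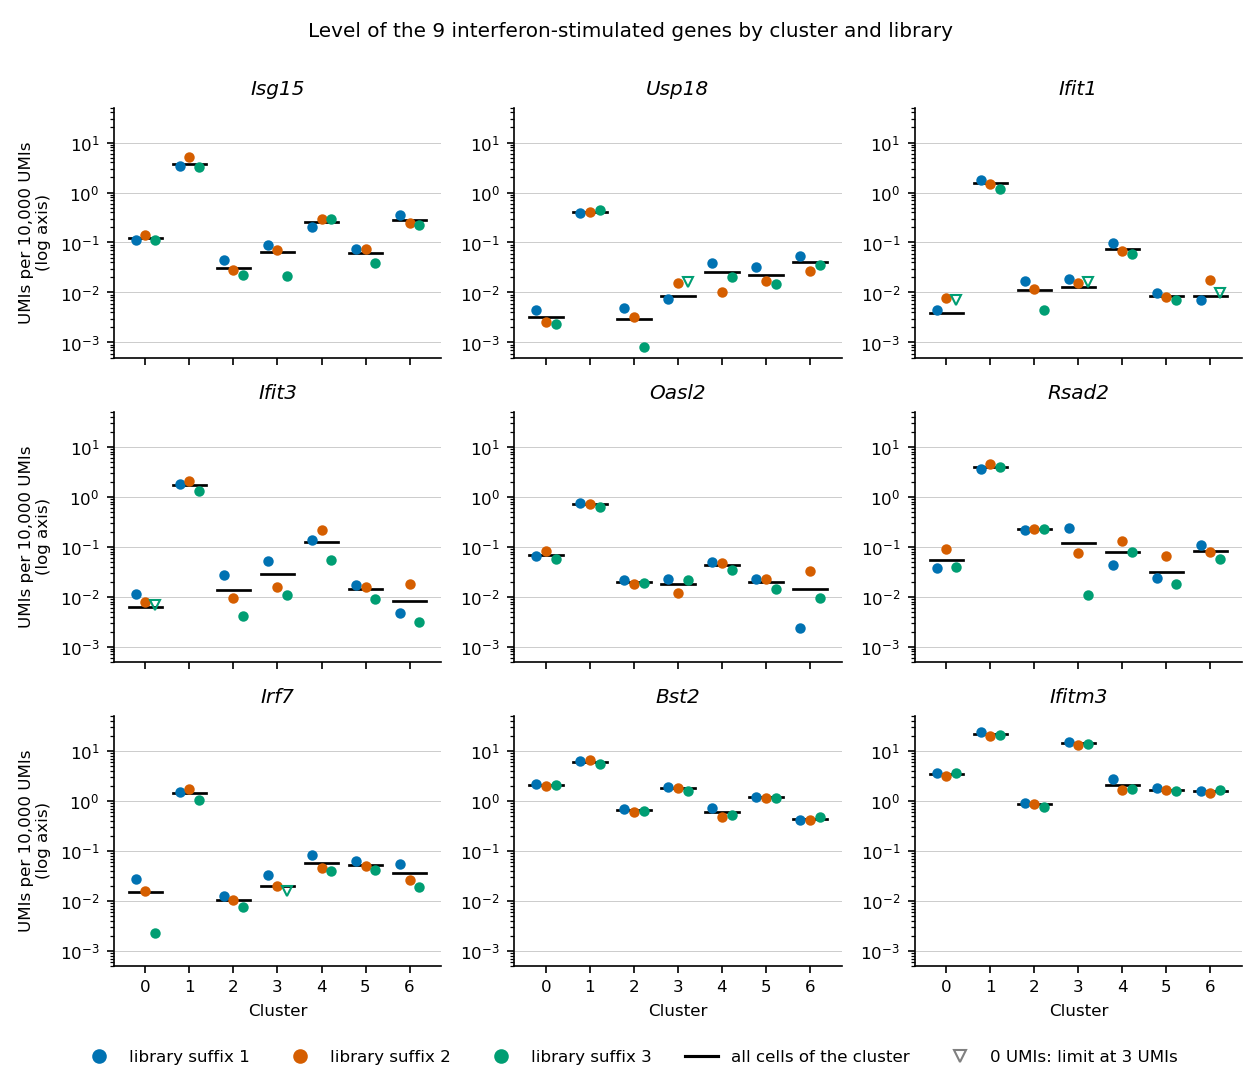
Level of each gene (UMIs per 10,000 UMIs, log axis) in clusters 0 to 6; points are the 3 library suffixes, bars all cells of the cluster, and open triangles mark 3 UMIs where a library had none. Cluster 1 is highest for all 9 genes with its 3 libraries above every other cluster, and *Ifitm3* alone comes close elsewhere, at 14.1 in cluster 3 against 22.0 in cluster 1.

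ISG15 is a ubiquitin-like protein that is attached to other proteins during an interferon response, and USP18 removes it and also restrains signalling at IFNAR2. *Isg15* stood at 3.41, 5.03 and 3.25 in the 3 libraries of cluster 1 (3.72 over all its cells). The next clusters were 6, at 0.361, 0.248 and 0.226, and 4, at 0.202, 0.296 and 0.301, whose library ranges overlapped. Cluster 1 was 13.0-fold above cluster 6, its libraries lay above those of all other clusters, and it held 65.7% of all *Isg15* UMIs. Clusters 0 (0.122), 3 (0.0645), 5 (0.0607) and 2 (0.0316) followed. *Usp18* read 0.383, 0.404 and 0.455 in cluster 1, 10.3-fold above cluster 6 (0.0542, 0.0266 and 0.0350). Clusters 4 (0.0253) and 5 (0.0228) overlapped cluster 6 in their libraries, and clusters 0 and 2 stood at 0.00318 and 0.00292, from 4 and 41 UMIs. The 2 genes of this pair thus shared their order at the top, with clusters 1, 6 and 4 leading for both.

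IFIT1 binds viral RNA that lacks the host's cap methylation, and IFIT3 belongs to the same family. *Ifit1* measured 1.80, 1.51 and 1.19 in cluster 1 and *Ifit3* 1.76, 2.11 and 1.32. For both, cluster 4 came second, at 0.0955, 0.0688 and 0.0578 for *Ifit1* and at 0.137, 0.217 and 0.0532 for *Ifit3*. Its libraries were clear of cluster 1, which was 20.5-fold and 13.5-fold higher. For *Ifit1* they were also clear of the next cluster. For *Ifit3* the lowest library of cluster 4 (0.0532, from 23 UMIs) was barely above the highest of cluster 3 (0.0518, from 14 UMIs). The remaining clusters lay at 0.00397 to 0.0126 for *Ifit1* and 0.00636 to 0.0280 for *Ifit3*, and their library ranges overlapped from one neighbour to the next. *Ifit1* was the gene most concentrated in cluster 1, which held 80.3% of its UMIs. In cluster 0 it had 5 UMIs in 728 cells, 0.258% of the cluster 1 level. Without *Lyz2*, the gauge genes stood in cluster 0 at 0.121% to 0.523% of their home level. Their home clusters 5 and 6 held 61,078,961 and 10,771,345 UMIs and cluster 1 held 8,412,051, so the percentages are not directly comparable. The part of free RNA in these 5 UMIs was not tested.

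OASL2 belongs to the oligoadenylate synthetase family that senses double-stranded RNA. *Oasl2* read 0.747, 0.706 and 0.624 in cluster 1 against 0.0653, 0.0809 and 0.0556 in cluster 0, the next, a 10.5-fold difference. Cluster 4 followed at 0.0439, and the library ranges of clusters 5, 2, 3 and 6 (0.0196 to 0.0139) overlapped those of their neighbours in this order. *Oasl2* was the only one of the 7 inducible genes for which the second cluster was cluster 0, the other cluster in which *Cdh5* and *Pecam1* were at least 2-fold higher.

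Viperin, encoded by *Rsad2*, makes a chain-terminating nucleotide that stops viral RNA synthesis. *Rsad2* had 3.65, 4.42 and 3.93 in cluster 1. Cluster 2, the largest with 5,396 cells, was second at 0.219, 0.221 and 0.224, the narrowest library range of any cluster for this gene, and cluster 1 exceeded it 17.6-fold. Because cluster 2 is so large it held 44.9% of all *Rsad2* UMIs beside 47.5% in cluster 1. In cluster 3 the libraries ranged from 0.0107 to 0.241, so the value of 0.121 over its cells came mostly from library 1 with 65 of 86 UMIs and was 0.0474 without that library. At least 2-fold lower levels than in the other clusters together were seen for *Rsad2* in clusters 0, 3, 4, 5 and 6, a comparison in which cluster 1 is part of the others. With cluster 1 left out of the comparison, cluster 2 was at least 2-fold above the remaining clusters for *Rsad2* and for no other member (7.95% of genes tested), and *Rsad2* was called lower in clusters 0 (6.02%) and 5 (16.1%) only.

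IRF7 is the transcription factor that amplifies type I interferon production. *Irf7* reached 1.54, 1.76 and 1.06 in cluster 1, 25.0-fold above cluster 4, whose libraries stood at 0.0825, 0.0447 and 0.0393. Clusters 5 (0.0514), 6 (0.0353), 3 (0.0196), 0 (0.0151) and 2 (0.0102) followed with library ranges that overlapped each neighbour. For no other gene of the 9 was the step from cluster 1 to the next cluster as large.

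Tetherin, encoded by *Bst2*, holds budding virions at the cell surface, and IFITM3 blocks the fusion of viruses with endosomal membranes. *Bst2* read 6.24, 6.69 and 5.59 in cluster 1 and 2.16, 1.97 and 2.07 in cluster 0, a 2.96-fold difference. Clusters 3 (1.78) and 5 (1.18) came next without overlap, and clusters 2 (0.646), 4 (0.588) and 6 (0.430) were lowest. *Ifitm3* measured 23.5, 20.1 and 21.1 in cluster 1 and 15.3, 13.3 and 13.5 in cluster 3, a ratio of 1.56. Cluster 3 was in turn 4.09-fold above cluster 0 (3.67, 3.09 and 3.55). The other clusters lay between 0.851 and 2.10, so *Ifitm3* alone separated 2 clusters from the rest, and cluster 3 is the one in which all 5 germ or pluripotent markers were higher.

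Outside cluster 1, members were called higher in clusters 0 and 3 and called lower in clusters 0 and 2 to 6, in comparisons that include cluster 1 among the others. Higher were *Bst2* in cluster 0 (of 4 members that reached the minimum level, where 8.97% of genes tested were called higher) and *Ifitm3* in cluster 3 (of 4, at 10.3%). None of 7, 5, 4 and 4 members that reached it was called higher in clusters 2, 4, 5 and 6, where 6.11%, 13.0%, 8.20% and 7.99% of genes were. In cluster 2, 6 of 7 members were called lower (11.1% of genes), from *Bst2* with a log2 ratio of -1.27 to *Irf7* with -3.87, and *Rsad2* was the exception. Called lower elsewhere were *Rsad2* in clusters 0 (6.09%) and 4 (7.88%), *Isg15* and *Rsad2* in clusters 3 (24.3%) and 5 (16.7%), and *Bst2* and *Rsad2* in cluster 6 (17.6%). Members pass the minimum mainly through cluster 1, so these counts describe the table and lend no support to the list. With cluster 1 left out of the others, cluster 4 was higher for *Isg15* and *Ifit3* (13.6%) and cluster 6 for *Isg15* (8.28%), and the lower calls in cluster 2 were *Ifitm3* and *Isg15* (10.2%).

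Shares of cells were compared after 5,000 UMIs had been drawn from each of the 9,472 cells that had as many. In cluster 1 *Ifitm3* was detected in 98.1% of 745 cells (95% Clopper–Pearson interval 96.9 to 99.0%) and *Bst2* in 82.0% (79.1 to 84.7%). The 7 inducible genes were each found in a minority, from *Isg15* in 35.0% (31.6 to 38.6%) and *Rsad2* in 31.3% over *Irf7* (23.2%), *Ifit3* (20.8%), *Oasl2* (20.3%) and *Ifit1* (19.1%) to *Usp18* in 14.1% (11.7 to 16.8%). Outside cluster 1 the largest shares of these 7 were *Rsad2* in 9.19% of cluster 2 and *Isg15* in 8.41% of cluster 6, and *Usp18* was found in 0 of 722 cells of cluster 0, which allows a share of cells with a UMI at this depth of up to 0.416% (3 cells). With all its UMIs read, cluster 0 had 4 cells of 728 with *Usp18* (0.549%). As deposited, with all UMIs and the study's threshold of 0.5 counts per 10,000 UMIs of the cell (CPTT), *Ifitm3* was above it in 98.9% of cluster 1 cells.

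The UMIs within cluster 1 were gathered in few cells. The tenth of cells with the most *Ifit1* (80 of 799) held 89.3% of its UMIs in the cluster, and the corresponding shares were 86.4% for *Rsad2*, 85.8% for *Ifit3*, 80.1% for *Irf7*, 77.6% for *Isg15*, 73.3% for *Usp18* and 67.2% for *Oasl2*. *Bst2* (45.6%) and *Ifitm3* (32.2%) were spread more evenly. In cluster 4 these evenly spread genes were instead concentrated, since 52 of 518 cells held 80.6% of *Ifitm3* and 84.1% of *Bst2* UMIs.

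At 5,000 UMIs the cells of cluster 1 had a median of 3 of the 9 genes, and 178 of them (23.9%, interval 20.9 to 27.1%) had 5 or more. By library this was 21.8%, 24.0% and 26.9%. Another 74 cells had 4 and 43 of the 178 had exactly 5, so the number of genes per cell is a range and does not separate a type of cell. All 9 genes were found in 21 cells. Of the 210 cells in the table with 5 or more, cluster 1 held 84.8%. Cluster 4 had 12 such cells (2.34%, 1.22 to 4.06%), cluster 5 had 11 (0.702%), cluster 2 had 6 of 5,377 (0.112%), cluster 6 had 2, cluster 3 had 1 and cluster 0 had 0 of 722 (up to 0.416%, or 3 cells, at this depth). Counting the 7 inducible genes alone, 35.4% of cluster 1 cells had at least 2 and 39.9% had none, whereas none was found in 86.4% to 93.7% of cells elsewhere.

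**Figure D2:**
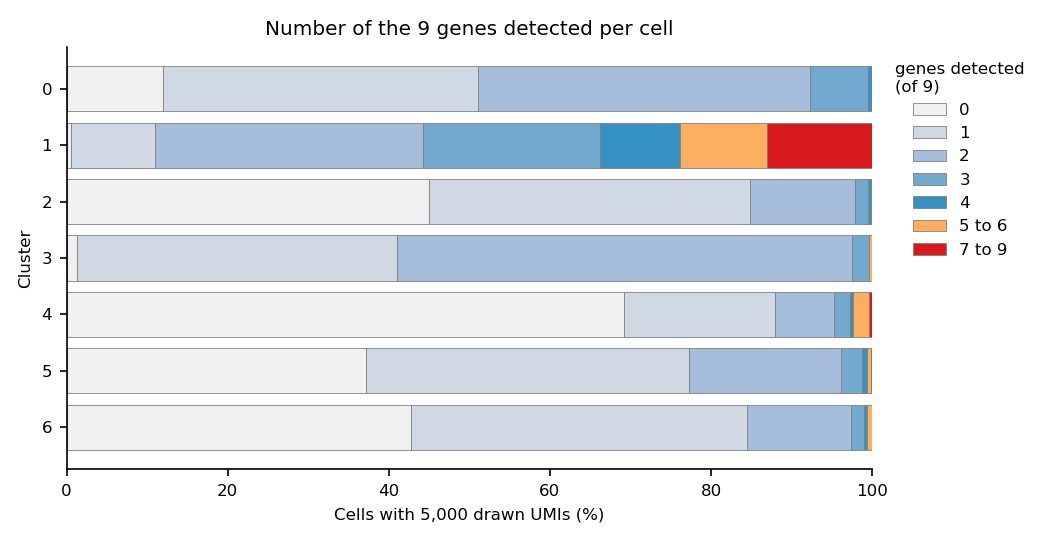
Share of cells (%, at 5,000 UMIs per cell) by the number of the 9 genes detected, for clusters 0 to 6. Orange and red segments are cells with 5 or more genes, 23.9% of cluster 1 and at most 2.34% of any other cluster.

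The 7 inducible genes tended to be found together in cells of cluster 1. *Ifit3* was detected in 67.6% of the 142 cells with *Ifit1* (59.2 to 75.2%) and in 9.78% of the 603 without it (7.53 to 12.4%), with 68.4%, 63.6% and 69.2% among cells with *Ifit1* in the 3 libraries. *Isg15* was found in 83.1% of cells with *Ifit1* and in 23.7% without, *Rsad2* in 71.8% and 21.7%, and *Usp18* in 39.4% and 8.13%. *Irf7* was detected in 60.0% of cells with *Ifit3* (51.8 to 67.8%) and 13.6% of those without. *Oasl2* occurred in 40.2% of cells with *Isg15* and 9.50% of those without. *Ifitm3* hardly differed by this measure, at 98.6% and 98.0% with and without *Ifit1*, and *Bst2* read 93.0% and 79.4%. Over cells of cluster 1 within a library (339, 179 and 227 cells at equal depth), the correlation of a gene with the mean of the other 8 was 0.812, 0.802 and 0.773 for *Isg15* and 0.808, 0.804 and 0.782 for *Ifit3*. It was lowest for *Bst2* at 0.379, 0.450 and 0.382, and *Ifitm3* read 0.394, 0.529 and 0.464. *Isg15* and *Ifit3* thus stood nearest to the other genes in all 3 libraries.

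**Figure D3:**
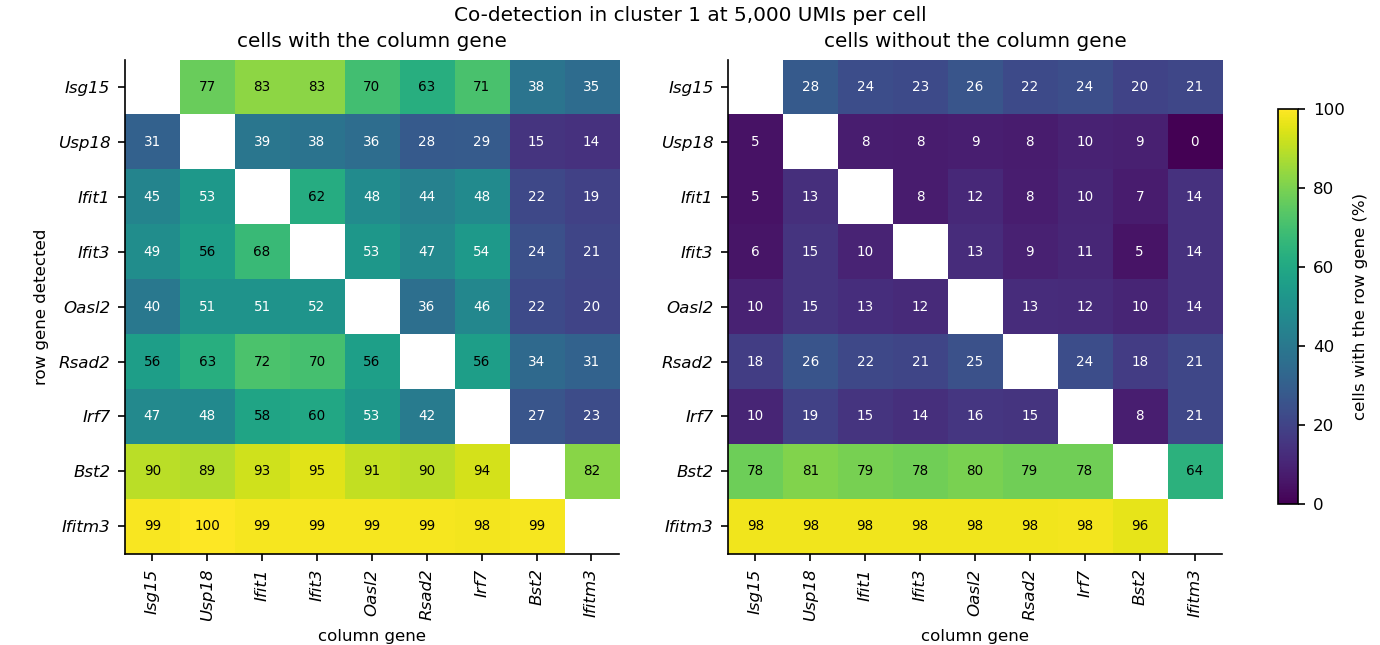
Percentage of cluster 1 cells (5,000 UMIs each) in which the gene of the row was detected, among cells with (left) and without (right) the gene of the column. *Isg15* is found in 83.1% of cells with *Ifit1* and 23.7% without it, and the rows of *Ifitm3* and *Bst2* stay high in both panels.

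*Rsad2* in cluster 2 went largely without the other genes. Of the 233 cluster 1 cells with *Rsad2*, 177 (76.0%, 70.0 to 81.3%) had at least 1 of *Isg15*, *Usp18*, *Ifit1*, *Ifit3*, *Oasl2* and *Irf7*, against 42.0% of those without it. Of the 494 cluster 2 cells with *Rsad2*, 36 (7.29%, 5.16 to 9.95%) had one of these, against 157 of 4,883 without it (3.22%, 2.74 to 3.75%). The cells of both clusters were read at the same 5,000 UMIs. The level of *Rsad2* in cluster 2 is 5.67% of that in cluster 1. Over all cells, the gauge genes other than *Lyz2* stood in cluster 2 at 0.0919% to 0.461% of their home level. In single libraries they ran from 0.0660% to 2.43%. The other 6 inducible genes stood in cluster 2 at 0.708% to 2.77% of their cluster 1 level over all cells. The home clusters of the gauge genes differ in size from cluster 1, so these percentages are not directly comparable. The part of free RNA in these values was not tested.

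**Figure D4:**
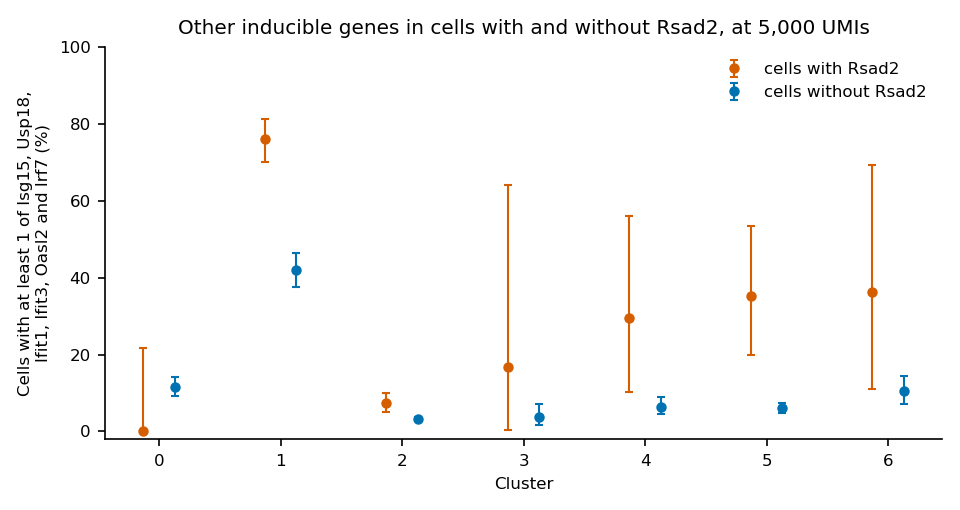
Percentage of cells (5,000 UMIs each) with at least 1 of *Isg15*, *Usp18*, *Ifit1*, *Ifit3*, *Oasl2* and *Irf7*, among cells with and without *Rsad2* in clusters 0 to 6; bars are 95% Clopper–Pearson intervals. Cluster 1 reaches 76.0% with *Rsad2* and cluster 2 reaches 7.29%, and in clusters 0, 3, 4, 5 and 6 the cells with *Rsad2* number 34 or fewer.

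The 9 genes did not stand alone in cluster 1. Of 39 other interferon-stimulated genes on a separate list (*Mx2* was not analysed here), 32 were called higher and 1 lower against the other clusters, with a median log2 ratio of 4.16 beside 0.08 for all genes. Among genes that reached the minimum level, the largest ratios were those of the chemokine *Cxcl10* (7.61), *Oasl1* (6.76), *Ifit3b* (6.46), *Ifi44* (6.09), *Phf11d* (5.69), the nucleic acid sensor *Zbp1* (5.67), *Ifit2* (5.47) and *Slfn5* (5.32). The one gene called lower was *Ifitm1*, a neighbour in kind of *Ifitm3*, at 0.0333 against 0.916. Of the enzymes that attach ISG15, the E2 *Ube2l6* (3.19) and the E3 ligase *Herc6* (2.25) were called higher and the E1 *Uba7* (0.92) was not. Of 13 genes biased to interferon-γ, 12 were higher (median 3.51), led by *Cxcl9* (6.92), *Gbp2* (5.89) and *Iigp1* (5.28). These lists overlap in regulation with each other and were chosen with earlier results known.

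Receptor and signalling genes differed less. Of 12, 9 were called higher in cluster 1 (median 1.29), with *Irf9* at 2.94, *Jak2* at 2.25, *Stat2* at 2.14 and *Ifnar2* at 1.35, while *Ifnar1* at 0.72 and *Tyk2* at 0.78 were below 2-fold. Of 12 sensors and adaptors 4 were called higher, among them *Tlr3* (2.17) and *Tbk1* (1.36), where 18.6% of all genes tested were. All 8 inflammatory genes were higher, *Il1a* (8.73) and *Saa3* (7.87) most. Of 10 interferon genes, 5 had no UMI in any of the 9,562 cells and none reached the minimum level in cluster 1 or the other clusters. *Ifnb1* had 72 UMIs in 5 cells, of which 64 came from a single cluster 1 cell of library 1 in which 8 of the 9 genes were detected. A further 2 cells of cluster 1, both of library 2, had 2 *Ifnb1* UMIs and 7 of the 9 genes each, a cell of cluster 5 had 3 UMIs and none of the genes, and a cell of cluster 0 had 1 UMI and 2 genes.

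In the other clusters 14 to 22 of the same 39 genes reached the minimum level, in comparisons that include cluster 1 among the others. Genes can reach it through cluster 1 alone, as *Cxcl10* stood at 2.32 there and at 0.0326 or less elsewhere. The counts below therefore partly restate the high levels in cluster 1 and do not describe the other clusters on their own. In cluster 2, 18 of 22 were lower and none higher, where 11.1% and 6.11% of all genes were. Cluster 5 had 8 of 16 higher (8.20% of all genes) and 2 lower (16.7%), with *Samhd1*, *Slfn2*, *Lgals9* and *Ly6e* among the higher. Cluster 3 had 5 of 15 higher (10.3%) and 6 lower (24.3%), and *Ifitm1* and *Ifitm2* were among its higher genes beside *Ifitm3* itself. In clusters 0, 4 and 6 there were 0 of 17, 1 of 15 and 2 of 14 higher (8.97%, 13.0% and 7.99% of all genes) and 4, 6 and 6 lower (6.09%, 7.88% and 17.6%).

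Within cluster 1 the 178 cells with 5 or more of the 9 genes were set beside its other 567 cells, with medians of 8,278.5 and 8,244 UMIs (8,307 and 8,838 in library 3). The 9 genes chose the cells and are left out. At least 2-fold higher in all 3 libraries were 429 of 9,018 genes (4.76%), and lower were 171 (1.90%). Of the 39 other interferon-stimulated genes 33 were higher and none lower, with a median log2 ratio of 2.14 beside -0.14 for all genes. *Ifit2* stood at 3.12 against 0.102 per 10,000 (log2 ratio 4.94), *Cxcl10* at 8.42 against 0.331 (4.67), *Oasl1* at 2.10 against 0.0691 (4.92) and *Ifit3b* at 1.88 against 0.0493 (5.25). *Mx1* had 79 UMIs against 3 and *Ifit1bl1* 77 against 0. *Oasl1*, *Ifit3b* and *Ifit1bl1*, all among the 33, resemble *Oasl2*, *Ifit3* and *Ifit1*, which helped to choose the cells. Reads could be split between such copies, so these genes are not independent of the choice. Not called were *Ifi27* (-0.08), *Ifitm2* (-0.12), *Ly6e* (0.52), *Slfn5* (0.67), *Trim25* (0.95) and *Ifitm1*, which did not reach the minimum. Of these, *Ifi27*, *Slfn5*, *Ifitm2* and *Ly6e* were called higher in cluster 1 as a whole, with log2 ratios of 4.97, 5.32, 1.12 and 3.11. Between the cells of cluster 1 *Slfn5* and *Ly6e* were above 0 in all 3 libraries but below 2-fold.

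Of the ISG15 enzymes, *Herc6* at 2.34, *Ube2l6* at 1.36 and *Uba7* at 1.15 were all called higher. Of the signalling genes *Stat2* at 2.05 and *Irf9* at 1.61 were too. The receptors themselves read 0.51 (*Ifnar1*), 0.43 (*Ifnar2*), -0.26 (*Ifngr1*) and -0.04 (*Ifngr2*). Of 13 genes biased to interferon-γ 11 were higher (median 1.84), and *Irf1* at 0.78 was not called. Among 12 sensors and adaptors only *Irf5* was (2.67).

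**Figure D5:**
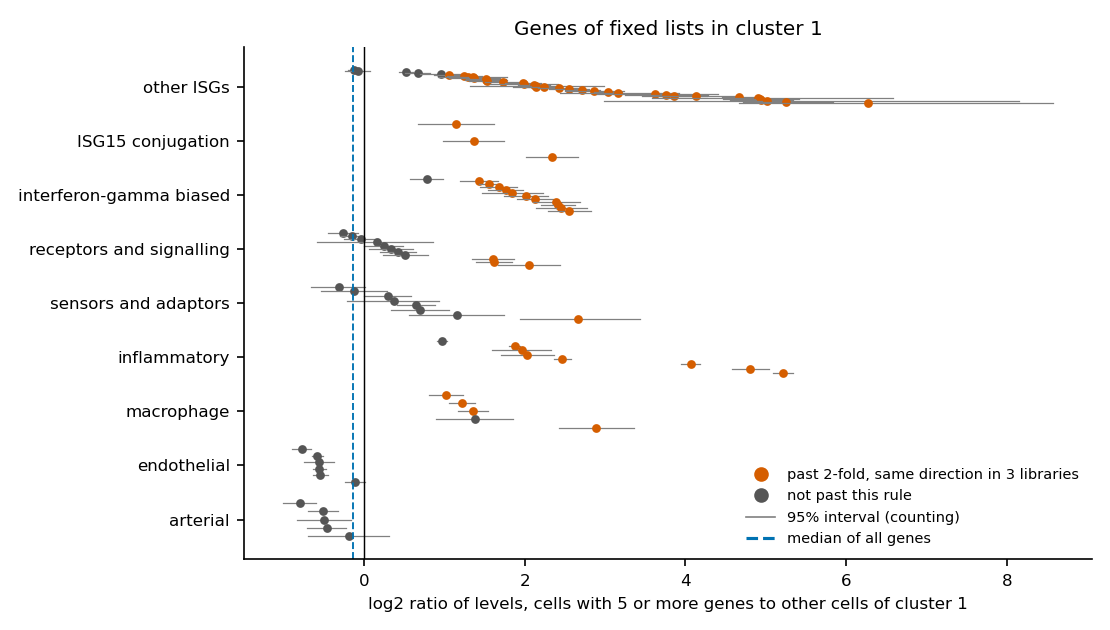
Log2 ratio of levels in cluster 1 between cells with 5 or more of the 9 genes and the other cells; each point is a gene of a list, lines are 95% counting intervals, orange marks genes at least 2-fold different in the same direction in all 3 libraries, and the dashed line is the median of all genes. Of the other interferon-stimulated genes 33 of 39 are orange, whereas the endothelial and arterial markers lie below 0 and none is orange.

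Genes of other kinds differed between these cells too. Of 8 inflammatory genes 7 were higher, with *Saa3* at 5.21, *Il1a* at 4.80 and *Il1b* at 4.06, and the list summed to 113 against 19.2 per 10,000. All 6 macrophage markers were present in both sets, 4 were called higher (*C1qa*, *C1qb*, *C1qc* and *Adgre1*), and they summed to 7.50 against 3.05, with 12.2, 5.56 and 2.62 against 4.01, 4.93 and 0.336 in the libraries. The neutrophil list summed to 2.26 against 0.107, nearly all of it *S100a8*, with *Elane* at 0 in both. The markers listed for plasmacytoid dendritic cells, a cell type known for interferon production, summed to 0.0771 against 0.0263 with *Ccr9* at 0 in both. Nearly all of this was *Cox6a2*, with 31 UMIs in cluster 1 beside 1 of *Siglech* and 1 of *Ly6d*, so the sums do not show this cell type. The 6 endothelial markers summed to 31.6 against 46.1 and none was called. Mitochondrial genes took 2.15% against 2.75% of UMIs.

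Leaving out all cells with a macrophage-marker UMI, a step added after the data were seen, kept 604 cells of cluster 1, of which 125 (20.7%, 17.5 to 24.1%) had 5 or more of the genes, against 53 of 141 (37.6%, 29.6 to 46.1%) among the cells with such a UMI. By library the share without them was 16.4%, 22.8% and 25.4%. In the kept cells 27 of the 39 other interferon-stimulated genes were called higher and none lower, beside 283 of 8,879 genes tested higher (3.19%) and 178 lower, and their median log2 ratio was 2.14 as before. The endothelial median moved from -0.56 to -0.15. The difference between the cells was thus measured without detected UMIs of the 6 listed macrophage markers as well. *Lyz2* is not among these markers and was called higher in the cells with 5 or more genes before this step. The kept cells are therefore not shown to be free of leukocyte RNA, and the part of macrophage RNA in the values over all cells was not tested.

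The genes whose pattern was most like that of the 9 depended on the scale. Over the 21 units of cluster and library, the summed level of the 9 correlated most with *Nr1h2* (0.951), *Arrdc4* (0.946) and *Irf1* (0.937), on log2 values that share libraries and clusters. The sum does not weigh the 9 genes equally, since *Ifitm3* gave 18,484 of its 34,924 UMIs in cluster 1 and 10,061 of 11,522 in cluster 3. *Irf1* stood highest at 1.06 in cluster 1 and 0.510 in cluster 3, the clusters in which *Ifitm3* led. Over single cells within these units the leading genes were *H2-K1* (0.256), *Ly6a* (0.254), *B2m* (0.251) and *Trim30a* (0.222), correlations too weak in sparse counts to be read further. Within cluster 1 alone they were *Slfn2* (0.577), *Herc6* (0.471), *Trim30a* (0.467) and the chemokine *Ccl5* (0.419), followed by *H2-D1* (0.405), a class I heavy chain.

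The 7 inducible genes were also read in cells split by other genes at 5,000 UMIs. In cluster 5, the 687 cells with the complement gene *C1qb* and without the granule gene *Mpo* summed to 0.237 per 10,000, the 329 with *Mpo* and without *C1qb* to 0.0867, the 512 with neither to 0.236 and the 40 with both to 0.574. In the 3 libraries the cells with neither gene read 0.371, 0.174 and 0.110, and those with *Mpo* alone 0.0803, 0.135 and 0.0663. *Irf7* read 0.0644, 0.0155, 0.0519 and 0.187 in the same sets. In clusters 0, 1 and 2 the sums with and without the haematopoietic factor *Runx1* were 0.181 and 0.282, 25.8 and 12.6, and 1.66 and 0.298. The *Runx1* cells of cluster 1 were only 40, with sums of 20.2, 59.8 and 7.44 in the 3 libraries against 13.0, 12.2 and 12.2 without *Runx1*, so the difference changed direction in library 3. In cluster 2 the 72 such cells read 3.94, 0.444 and 0.0774, and the higher value came from library 1. Cells with 5 or more genes made up 12 of 40 with *Runx1* in cluster 1 (30.0%, 16.6 to 46.5%) and 166 of 705 without it (23.5%, 20.5 to 26.9%), intervals that overlap.

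The ISRE core was also counted in the other lists. It was present in the windows of 13 of 29 matched symbols of the other interferon-stimulated genes (44.8%) and of 6 of 11 biased to interferon-γ (54.5%), against 1,079 of 27,025 symbols in all (3.99%). Among receptor and signalling genes 1 of 10 held it, among inflammatory genes 1 of 6 and among endothelial markers 0 of 4. *Oasl2* and *Irf7*, without the letters in their windows, had levels in cluster 1 that were 10.5-fold and 25.0-fold above the next cluster, within and beyond the 1.56-fold to 20.5-fold range of the 6 genes that hold them.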

How the data were processed

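The authors aligned 10x Genomics 3′ v3 reads to mm10, counted UMIs with Cell Ranger 3.1.0 (Seurat 3.1.5 is also named in the submitters' processing notes), kept singlets and deposited raw counts per Ensembl gene and cell, with a Leiden cluster number per cell. The authors also deposited normalized values on a natural log scale, ln(1 + CPTT), and the same computation on the counts gave values within 5.3e-15 of these. UMAP coordinates were not used.

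GENCODE M21 named 27,722 genes, and counts of 11 repeated names were summed, which left 27,985. Pools and times of cells are not given in the sources used here. The matrix was treated as 1 sample and no P values are given. Levels are summed UMIs per 10,000 with exact Poisson intervals, and shares have Clopper–Pearson intervals, both at 95% and for counting error only. A gene was called in a comparison when it was at least 2-fold different, in the same direction in all 3 library suffixes, with at least 0.1 UMIs per 10,000 in the higher group. For shares 5,000 UMIs were drawn per cell (seed 1), which left out 90 cells, 54 of them in cluster 1. No doublet caller was run. For a gene without UMIs, 3 UMIs were taken as the limit. Correlations over units used log2(level + 0.1).

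The genes, the lists and the comparisons were chosen with earlier results of these data known. Named are the 9 genes, list genes past 2-fold in a cluster (up to 8 a list by size), the 10 genes most like them and cell type markers, and list genes that were not called or lead a contrast within cluster 1, the latter chosen after their values were seen. Promoters are from RefSeq. The alternatives were other thresholds, depths, seeds, minimum levels and weights, the deposited normalized values and leaving out a library, and those added after seeing the data left cluster 1 out of the others, used cluster 1 alone, changed the number of genes per cell there or left out cells with macrophage UMIs. The scripts were tested on simulated data with known changes. The software was scipy 1.17.1, numpy 2.4.6, matplotlib 3.10.9, pandas 2.3.3 and Python 3.11.15.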

Additional observations from a re-analysis of the deposited data

How the results depend on the processing

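All 9 genes had their highest level in cluster 1 with the deposited normalized values, and all 9 were called higher there under every alternative except a minimum of 1 UMI per 10,000, which left 7. Without *Ifitm3* and *Bst2* the sums in clusters 0 to 6 were 0.273, 13.4, 0.310, 0.272, 0.667, 0.208 and 0.474. As the mean of the cells' CPTT the sums of all 9 genes were 14.1 in cluster 3, 3.32 in cluster 5 and 2.62 in cluster 6, and the sum of all 9 in cluster 6 was 2.31 without the 1% of cells with the most UMIs. The share of cluster 1 cells with many of the genes was 33.8% for 4 or more, 18.1% for 6 or more, 32.5% at 10,000 UMIs per cell and 20.7% without macrophage-marker UMIs. For 4 or more, clusters 0, 2 and 5 read 0.554%, 0.521% and 1.28%. For 6 or more, clusters 4 and 5 read 1.17% and 0.383%. At 10,000 UMIs clusters 2 and 4 read 0.203% and 3.48%, and with seed 2 cluster 4 read 1.76%.

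Counts of called genes (in brackets the share of all genes tested) outside cluster 1 moved more. With cluster 1 left out of the others they were 2, 1, 2, 2 and 1 higher in clusters 0, 2, 3, 4 and 6 (7.95% to 13.6%), and 2, 0, 0, 1 and 1 lower in clusters 2 to 6 (7.56% to 23.6%). With the other clusters weighted equally, 0 were higher in cluster 0 (8.66%), and 5, 6, 4, 7 and 7 were lower in clusters 0, 3, 4, 5 and 6 (8.70%, 28.4%, 9.93%, 19.2% and 21.6%). A minimum of 1 UMI per 10,000 left 0 lower in clusters 0, 3, 4 and 5, 2 in cluster 2 and 1 in cluster 6 (3.69% to 19.3%). No minimum gave 5, 7, 5 and 6 lower in clusters 0, 3, 5 and 6 (21.5%, 30.8%, 27.1% and 30.9%). Leaving out a library gave 1 to 2 lower in clusters 3 (23.1% to 26.2%) and 4 (7.64% to 8.16%) and 0 to 1 higher in cluster 4 (13.0% to 13.5%). Of the 10 genes most like the 9 over cells, 6 were also in the ranking from cluster 1 alone. Leaving out a library moved none of the 9 levels in cluster 1 by over 1.5 times but moved 15 of 54 elsewhere, such as *Rsad2* in cluster 3 (0.0474 without library 1) and *Ifit3* in cluster 2 (0.0135, and 0.00645 without library 1), and 17 of 63 levels moved as means of CPTT. No paired analysis was possible because the library suffixes carry no pool and there is 1 group. The depth of cluster 1 limits detection per cell, and differences of a few UMIs in clusters 0 and 3 were not detectable. The causes were not tested.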
